A study of Homo sapiens with 18 samples.

Results

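The MYC, MAX and MXD network is described here through 9 genes, taken by name from the 60656 gene rows of the count table: MYC, MAX, MXD1, MXD3, MXD4, MXI1, MNT, MGA and MLX. All 9 were found and all 9 passed the filter on low counts in both lines. RNA was measured by 3′-end sequencing in CAMA-1 and ZR-75-1, established lines of breast cancer that express the oestrogen receptor and are labelled wild-type. Each line received abemaciclib at 500 nM, palbociclib at 500 nM or an equal volume of DMSO for 5 days, with 3 libraries in each of the 6 groups and 18 in all. Both drugs inhibit the cell cycle kinases CDK4 and CDK6. The study asks how these inhibitors, which activate the retinoblastoma protein, alter transcription, and the comparisons below place each drug against DMSO, the drugs against each other, and the lines against each other.

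MYC is a transcription factor that binds DNA as a dimer with MAX at the E-box CACGTG and raises genes for ribosome production, metabolism and growth. The MXD proteins (MXD1, MXD3, MXD4 and MXI1) and MNT pair with the same MAX at the same sites and recruit the SIN3 corepressor with its histone deacetylases, so that they oppose MYC. Several MXD genes are known to rise when cells leave the cell cycle, whereas MXD3 is known from cells in S phase. MGA is a further MAX partner, in a Polycomb complex, and MLX is a MAX-like protein that pairs with the glucose-responsive factors MondoA (gene MLXIP) and ChREBP (gene MLXIPL).

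The libraries held 2308442 to 4146549 counts. Levels are given as CPM, a gene's share of the counts of its library, on 1 scale over the 18 libraries. Before scaling, 1 count equals 0.241 to 0.433 CPM. The kit reads mainly the end of a transcript, so the values were not divided by gene length. Of the 6 luminal markers, every one was detected in every library, with ESR1 (the oestrogen receptor) at 120 counts or more and GATA3 at 4142 or more. Of 10 basal, stromal and immune markers, KRT5, COL1A2, PDGFRB and CD3E had no count in any library, and KRT14, TP63, PTPRC, CD68 and PECAM1 never exceeded 3 counts. COL1A1 had 26 to 108 counts. The mitochondrial share of the counts was 15.7% ± 0.866 in CAMA-1 with DMSO, and stood at 24.8% ± 1.37 and 23.6% ± 1.15 (SD, n = 3) under abemaciclib and palbociclib, while the group means of ZR-75-1 were 19.0% to 20.2%. Every member had the same call and the same direction of change when the mitochondrial genes were left out.

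MXD3 and MXD4 were the members with a call against DMSO for both drugs in both lines, in opposite directions, and the start region of MXD4 is printed for that reason. MXD3 lies on the minus strand at chr5:177301461-177312757 and MXD4 on the minus strand at chr4:2247432-2262109 (GRCh38, GENCODE 44). The window runs from 250 bases before to 50 bases after the transcription start, 5′ to 3′ on the gene's strand, with a match to the E-box CACGTG in capitals. The MXD4 window, from RefSeq on GRCh38.p14, is chr4:2262060-2262359.
MXD4: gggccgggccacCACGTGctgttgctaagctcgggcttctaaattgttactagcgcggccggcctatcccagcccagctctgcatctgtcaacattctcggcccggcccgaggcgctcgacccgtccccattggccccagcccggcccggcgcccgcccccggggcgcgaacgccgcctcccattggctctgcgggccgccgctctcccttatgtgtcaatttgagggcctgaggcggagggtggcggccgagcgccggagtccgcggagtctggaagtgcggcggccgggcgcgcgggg
The E-box was present once in the MXD4 window, 238 bases before the start, which is the same in RefSeq and GENCODE. MNT, at chr17:2384073-2401104 on the minus strand, and MLX, at chr17:42567072-42573239 on the plus strand, were the other members with the E-box, 193 and 50 bases before their RefSeq starts, which differ from the GENCODE starts. The 60 bases round each are shown for comparison with MXD4 (chr17:2401221-2401280 and chr17:42567023-42567082, GRCh38.p14).
MNT: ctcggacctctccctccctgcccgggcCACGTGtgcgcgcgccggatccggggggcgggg
MLX: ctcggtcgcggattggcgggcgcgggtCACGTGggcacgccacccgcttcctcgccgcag
In all, 8 members, all but MYC, were matched in the RefSeq table, with 13 windows. The MXD3 window among them lies at a RefSeq start 854 bases from the start of its reference transcript in GENCODE. The E-box was in 3 of the 13, against 7.256% of the 35116 windows of all genes. The E2F motifs TTTGGCGC, TTTCCCGC, TTTGGCGG and TTTCGCGC, searched on both strands, were in 3.3517% of all windows and in 1 of the 13 windows, at an MGA start. A match is a description of the letters and does not show that a factor binds there.

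Each drug was first compared with DMSO in CAMA-1, where 4 of the 9 members were called with abemaciclib and 4 with palbociclib. A gene was called when its p adjusted by Benjamini-Hochberg over all genes tested in edgeR's quasi-likelihood test was under 0.05. Both drugs had 2 members higher, MXD4 and MXI1 (background 20.3% and 18.5%), and 2 lower, MXD3 and MAX (20.2% and 18.9%). Of all 11053 genes tested in this line, 40.5% were called with abemaciclib and 37.4% with palbociclib, so the share of members called was near the background in both. In ZR-75-1, MXD4 was higher and MXD3 lower with each drug, and MYC was lower with palbociclib. There 2 members were called with abemaciclib and 3 with palbociclib, against a background of 36.2% and 28.1% of 11017 genes (17.9% and 14.6% higher, 18.3% and 13.6% lower). Both drugs were compared with the same 3 DMSO libraries of a line, so the comparisons of the drugs are not independent of each other.

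**Figure D1:**
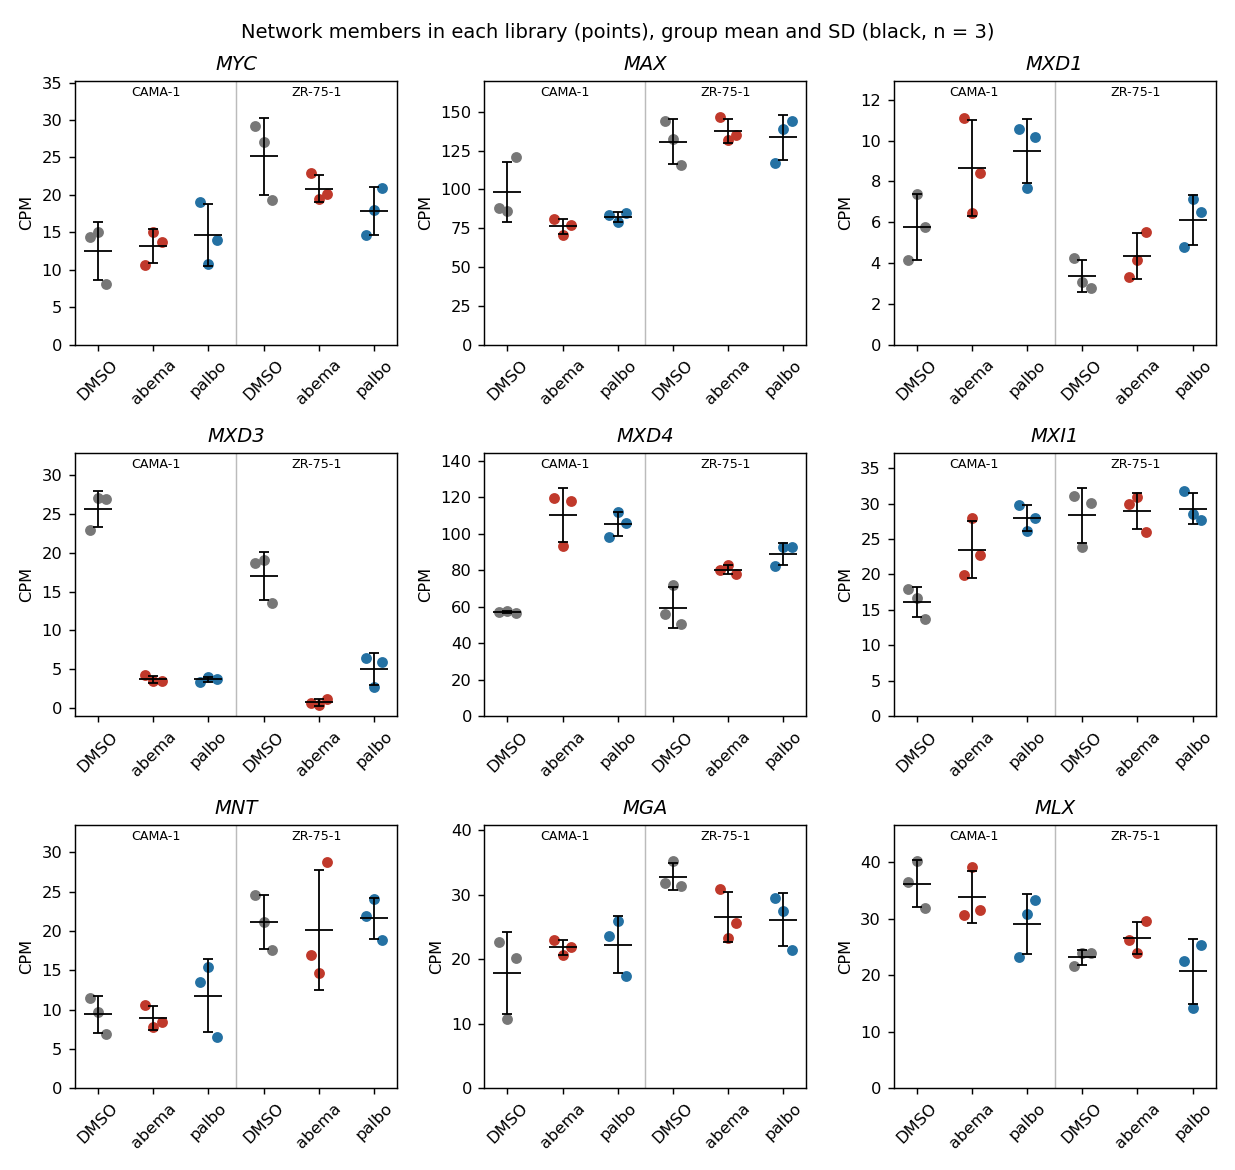
Level of each of the 9 members in CPM (vertical axis, from 0) in the 6 groups of line and treatment, with 1 point per library, the group mean as a black bar and the SD as whiskers (n = 3). MXD3 falls from a mean of 25.7 CPM in CAMA-1 and 17.1 CPM in ZR-75-1 with DMSO to 5.02 CPM or less with either drug, while MXD4 lies above the DMSO libraries of its line in every treated library.

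MXD3, an MXD repressor, showed the widest change of the members. In CAMA-1 its counts were 72, 81 and 117 with DMSO, 16, 8 and 11 with abemaciclib and 14, 14 and 11 with palbociclib. These are 23.0, 27.1 and 26.9 CPM with DMSO, 4.24, 3.43 and 3.44 CPM with abemaciclib and 3.37, 3.98 and 3.74 CPM with palbociclib. Every treated library was far below every DMSO library, and the libraries of the 2 drugs overlapped. Groups were without overlap for 4 members with abemaciclib and 5 with palbociclib, against 48.1% and 46.3% of all genes tested. The fitted log2 fold change of MXD3 was −2.80 ± 0.28 (SE) with abemaciclib (edgeR, adjusted p = 7.05e-14) and −2.82 ± 0.27 with palbociclib (edgeR, adjusted p = 2.22e-14). Summed over the 3 libraries and scaled, MXD3 was 6.86-fold lower with abemaciclib, with an exact interval from counting error alone of 4.81 to 10.1, and 7.02-fold lower with palbociclib, with an interval of 5.00 to 10.1. In bulk RNA, fewer cells expressing a gene and less RNA per cell cannot be told apart.

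In ZR-75-1 the MXD3 counts were 57, 62 and 39 with DMSO, 2, 1 and 3 with abemaciclib and 23, 8 and 20 with palbociclib. As CPM they were 18.7, 19.0 and 13.5 with DMSO, 0.664, 0.347 and 1.18 with abemaciclib and 6.45, 2.71 and 5.89 with palbociclib. The 3 groups did not overlap, with DMSO highest and abemaciclib lowest. Groups without overlap were seen for 4 members with each drug, against 45.7% of all genes with abemaciclib and 39.1% with palbociclib. Because each abemaciclib library held at most 3 counts, its change is best read from the counts: MXD3 was 24.1-fold lower than with DMSO, with a counting interval of 10.8 to 66.7. The fitted value, −4.51 ± 0.46 (edgeR, adjusted p = 1.89e-14), depends on the count that the fit adds to low values. With palbociclib the log2 fold change was −1.74 ± 0.32 (edgeR, adjusted p = 4.94e-06), or 3.33-fold lower by counts with an interval of 2.42 to 4.67.

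The exons of MXD3 overlap those of PRELID1, a mitochondrial lipid transfer gene on the opposite strand with 13352 counts over all libraries against 559 for MXD3. PRELID1 had its own values: it fell by 0.42 on the log2 scale with abemaciclib and by 0.44 with palbociclib in CAMA-1 (edgeR, adjusted p = 3.81e-07 and 9.23e-08). In ZR-75-1 PRELID1 was at −0.06 and 0.20 and was not called (edgeR, adjusted p = 0.658 and 0.0669), but it was lower with abemaciclib than with palbociclib, by −0.25 (adjusted p = 0.0308). With DMSO both PRELID1 (−1.25) and RAB24 (−2.65) were lower in ZR-75-1 than in CAMA-1 (edgeR, adjusted p = 6.11e-30 and 0.00612), the direction of MXD3. RAB24, which overlaps MXD3 on the same strand, had 111 counts in all and was higher with abemaciclib in CAMA-1, by a log2 fold change of 1.37 (edgeR, adjusted p = 0.0156). Whether the authors counted by strand was not stated, and the part of reads shared between these genes was not tested.

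MXD4, the MXD repressor with the most counts, was higher with each drug in each line. In CAMA-1 it had 57.2, 57.6 and 56.5 CPM with DMSO, 120, 93.1 and 118 CPM with abemaciclib and 98.4, 112 and 106 CPM with palbociclib. Every treated library was above every DMSO library, and the DMSO libraries lay close together. The log2 fold change was 0.93 ± 0.11 with abemaciclib (edgeR, adjusted p = 1.33e-11) and 0.85 ± 0.10 with palbociclib (edgeR, adjusted p = 2.29e-10), a 1.90-fold and 1.80-fold difference. In ZR-75-1 MXD4 had 56.0, 72.1 and 50.4 CPM with DMSO, 80.3, 83.0 and 77.7 CPM with abemaciclib and 82.2, 92.6 and 92.5 CPM with palbociclib. Here too the treated libraries were all above the DMSO libraries, of which replicate 2 was the nearest. The log2 fold change was 0.42 ± 0.12 with abemaciclib (edgeR, adjusted p = 0.00250) and 0.57 ± 0.11 with palbociclib (edgeR, adjusted p = 3.67e-05). In every alternative tried, including the fits that left out 1 library, MXD3 and MXD4 were called in the same direction in these 4 comparisons. Leaving out DMSO replicate 2 of ZR-75-1 or another single library moved the MXD4 value with abemaciclib between 0.32 and 0.59.

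MXI1, a further MXD repressor, was higher with both drugs in CAMA-1. Its libraries there stood at 17.9, 16.7 and 13.8 CPM with DMSO, 19.9, 27.9 and 22.8 CPM with abemaciclib and 29.8, 26.2 and 27.9 CPM with palbociclib. No treated library reached down to the DMSO libraries. The log2 fold change was 0.78 ± 0.19 with palbociclib (edgeR, adjusted p = 4.49e-04), a call present in every alternative. With abemaciclib it was 0.50 ± 0.19 (edgeR, adjusted p = 0.0310), and this call was absent with DESeq2 (adjusted p = 0.104), without a filter on low counts (edgeR, adjusted p = 0.0515) and without any 1 of 3 libraries: DMSO replicate 3 (0.38, adjusted p = 0.168), abemaciclib replicate 2 (0.37, adjusted p = 0.169) and abemaciclib replicate 3 (0.52, adjusted p = 0.0586). The adjusted p ranged from 0.0159 to 0.169 over all alternatives. In ZR-75-1 MXI1 averaged 28.4 ± 3.88 CPM with DMSO, 28.9 ± 2.56 CPM with abemaciclib and 29.3 ± 2.13 CPM with palbociclib (SD, n = 3), and the 3 groups overlapped. The log2 fold changes of 0.03 and 0.05 were not called (edgeR, adjusted p = 0.922 and 0.875), with 95% intervals of −0.32 to 0.37 and −0.29 to 0.38.

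MXD1, the first described of the MXD repressors, had 8 to 44 counts per library and was not called in any comparison with DMSO. In CAMA-1 the DMSO, abemaciclib and palbociclib groups averaged 5.76 ± 1.61, 8.66 ± 2.35 and 9.49 ± 1.58 CPM (SD, n = 3), and in ZR-75-1 they averaged 3.36 ± 0.789, 4.34 ± 1.11 and 6.12 ± 1.22 CPM. With palbociclib all 3 libraries lay above DMSO in each line, with log2 fold changes of 0.69 ± 0.31 (edgeR, adjusted p = 0.0705) and 0.84 ± 0.43 (edgeR, adjusted p = 0.141). The 95% intervals of 0.08 to 1.31 and −0.01 to 1.70 leave room for a rise of the size of MXD4, and the CAMA-1 value became a call without DMSO replicate 2 (0.88, edgeR, adjusted p = 0.0457). MXD1 shares exons with SNRNP27 on the same strand, a splicing gene with 4971 counts in all that was not called in these 4 comparisons (log2 fold changes −0.07 to 0.11).

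MNT, the broadly expressed repressor of the network, was not called against DMSO and its groups overlapped in each line. It had 9.37 ± 2.32, 8.92 ± 1.49 and 11.8 ± 4.69 CPM in CAMA-1 with DMSO, abemaciclib and palbociclib, and 21.1 ± 3.47, 20.1 ± 7.63 and 21.6 ± 2.62 CPM in ZR-75-1 (SD, n = 3). Its log2 fold changes with abemaciclib were −0.06 (CAMA-1) and −0.10 (ZR-75-1), and those with palbociclib 0.35 and 0.02. Abemaciclib replicate 3 of ZR-75-1, at 28.8 CPM, was the highest of all libraries, while the other two of its group, at 16.9 and 14.6 CPM, were the lowest of that line.

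**Figure D2:**
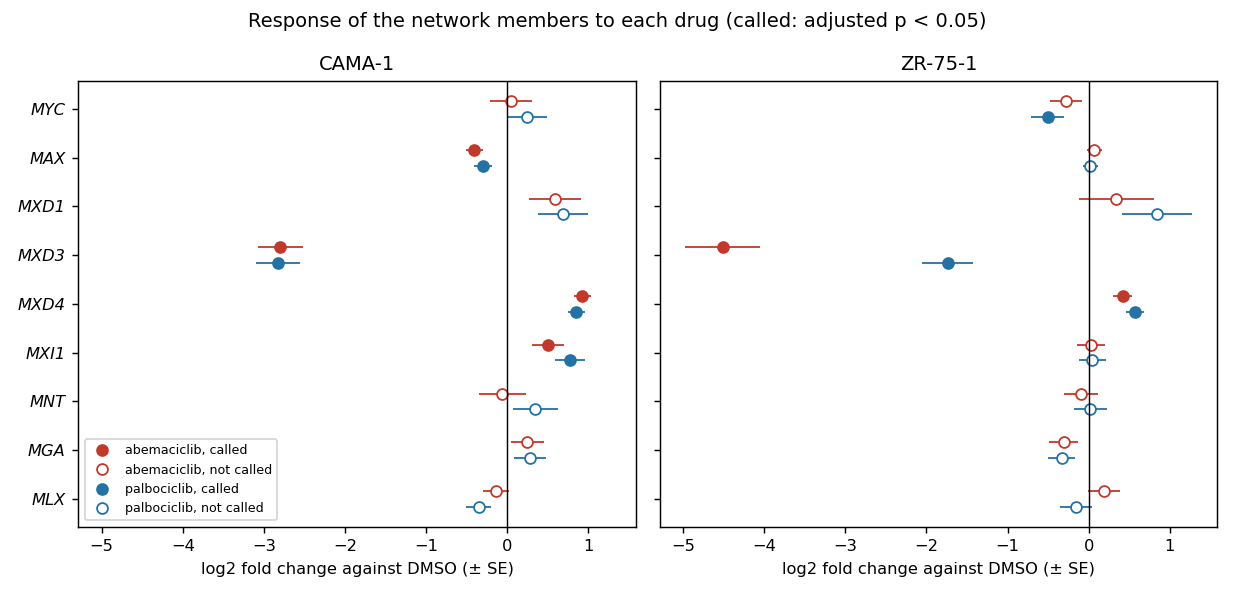
Log2 fold change against DMSO (horizontal axis, with SE as bars) of the 9 members in CAMA-1 (left) and ZR-75-1 (right), for abemaciclib in red and palbociclib in blue, with filled points for calls and open points for values not called. MXD3 lies at −2.80 and −2.82 in CAMA-1 and at −4.51 and −1.74 in ZR-75-1, while the called rises lie between 0.42 and 0.93.

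MYC itself was not called with either drug in CAMA-1. Its libraries there had 14.4, 15.1 and 8.04 CPM with DMSO, 10.6, 15.0 and 13.7 CPM with abemaciclib and 19.0, 10.8 and 13.9 CPM with palbociclib, or 35 to 79 counts. The groups overlapped, and the log2 fold changes were 0.05 ± 0.26 and 0.24 ± 0.25 (edgeR, adjusted p = 0.897 and 0.482). Their 95% intervals, −0.46 to 0.56 and −0.25 to 0.73, exclude a change of the size of MXD3. In ZR-75-1 MYC had 29.1, 27.0 and 19.3 CPM with DMSO, 22.9, 19.5 and 20.1 CPM with abemaciclib and 14.6, 18.0 and 20.9 CPM with palbociclib. The groups overlapped through DMSO replicate 3. With abemaciclib the log2 fold change was −0.28 ± 0.20 (edgeR, adjusted p = 0.287). With palbociclib it was −0.51 ± 0.20 and MYC was called (edgeR, adjusted p = 0.0458). The palbociclib call was absent with DESeq2 (adjusted p = 0.166), in a fit with the replicate number as a block (edgeR, adjusted p = 0.0535), in 1 fit over all libraries (0.0720) and without a low-count filter (0.0914). It was also absent without DMSO replicate 1 (−0.40, edgeR, adjusted p = 0.224), DMSO replicate 2 (−0.45, adjusted p = 0.137), palbociclib replicate 1 (−0.38, adjusted p = 0.209) or palbociclib replicate 2 (−0.52, adjusted p = 0.0832). Over all alternatives the adjusted p ran from 0.0136 to 0.224.

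MAX, the shared partner of MYC and the MXD proteins, was lower with both drugs in CAMA-1. Its libraries had 87.8, 86.1 and 121 CPM with DMSO, 80.7, 70.8 and 76.8 CPM with abemaciclib and 83.5, 78.8 and 85.0 CPM with palbociclib. The treated libraries were all below the DMSO libraries, but palbociclib replicate 3 lay just under DMSO replicate 2, and DMSO replicate 3 stood well above the rest. The log2 fold change was −0.41 ± 0.11 with abemaciclib (edgeR, adjusted p = 0.00157) and −0.30 ± 0.11 with palbociclib (edgeR, adjusted p = 0.0204). Neither call held without DMSO replicate 3, where the values were −0.22 (edgeR, adjusted p = 0.117) and −0.11 (adjusted p = 0.461). The palbociclib call was also absent with DESeq2 (adjusted p = 0.0995) and without palbociclib replicate 1 (0.0530) or 2 (0.0837). In ZR-75-1 MAX had 131 ± 14.3, 138 ± 7.81 and 134 ± 14.3 CPM (SD, n = 3) with DMSO, abemaciclib and palbociclib, with log2 fold changes of 0.07 and 0.02 that were not called (edgeR, adjusted p = 0.618 and 0.895). FNTB, on the opposite strand to MAX with 694 counts in all, was not called in these comparisons.

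MGA and MLX, which connect the network to a Polycomb complex and to glucose-responsive transcription, were not called against DMSO. MGA had 17.9 ± 6.32, 21.8 ± 1.22 and 22.3 ± 4.42 CPM in CAMA-1 with DMSO, abemaciclib and palbociclib, where the groups overlapped. In ZR-75-1 it had 32.8 ± 2.13, 26.6 ± 3.88 and 26.1 ± 4.14 CPM (SD, n = 3), and every treated library was below every DMSO library. The log2 fold changes there were −0.31 ± 0.17 and −0.33 ± 0.17 (edgeR, adjusted p = 0.166 and 0.140). MLX had 36.2 ± 4.13, 33.8 ± 4.59 and 29.1 ± 5.32 CPM in CAMA-1, and 23.1 ± 1.31, 26.6 ± 2.84 and 20.7 ± 5.75 CPM in ZR-75-1. Its lowest adjusted p in edgeR was 0.0712, for −0.35 ± 0.16 with palbociclib in CAMA-1, and this value became a call without DMSO replicate 3 (−0.45, adjusted p = 0.0346) or palbociclib replicate 3 (−0.45, adjusted p = 0.0372). PSMC3IP, a recombination gene on the opposite strand to MLX with 509 counts in all, fell by 1.77 and 1.50 in CAMA-1 on the log2 scale (edgeR, adjusted p = 5.21e-08 and 9.26e-07). In ZR-75-1 PSMC3IP fell by 1.14 with abemaciclib (edgeR, adjusted p = 0.0170) and stood at −0.79 with palbociclib (adjusted p = 0.107).

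The make-up of the repressors, taken as the summed CPM of MXD1, MXD3, MXD4, MXI1 and MNT, is given as a description of the same values. In CAMA-1 the sum was 114 ± 4.37 CPM with DMSO, against 155 ± 14.4 and 158 ± 5.91 CPM with the drugs in the same order (SD, n = 3), and the treated libraries were all above DMSO. In ZR-75-1 it was 129 ± 13.2, 134 ± 4.31 and 151 ± 3.99 CPM, where the abemaciclib libraries overlapped DMSO and the palbociclib libraries did not. MXD3 made up 22.5% ± 2.15 of the CAMA-1 sum with DMSO, against 2.39% ± 0.225 and 2.34% ± 0.149 with the drugs. In ZR-75-1 its share was 13.1% ± 1.15, 0.539% ± 0.296 and 3.34% ± 1.40. The MXD4 share of the CAMA-1 sum was 50.1% ± 1.45, 70.9% ± 3.25 and 66.5% ± 2.92, and that of the ZR-75-1 sum 45.8% ± 5.29, 59.8% ± 3.53 and 58.9% ± 2.68. MXD4 CPM per MXD3 CPM ran from 2.10 to 2.49 in the CAMA-1 DMSO libraries and from 27.1 to 34.3 in the treated ones. The repressor sum per MYC CPM overlapped between groups in CAMA-1 (7.87 to 13.7 with DMSO, 9.23 to 15.6 with abemaciclib, 8.19 to 15.3 with palbociclib). In ZR-75-1 this ratio ran from 4.62 to 5.91 with DMSO, from 5.72 to 6.92 with abemaciclib and from 7.24 to 10.1 with palbociclib, so that the palbociclib libraries stood above the others.

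**Figure D3:**
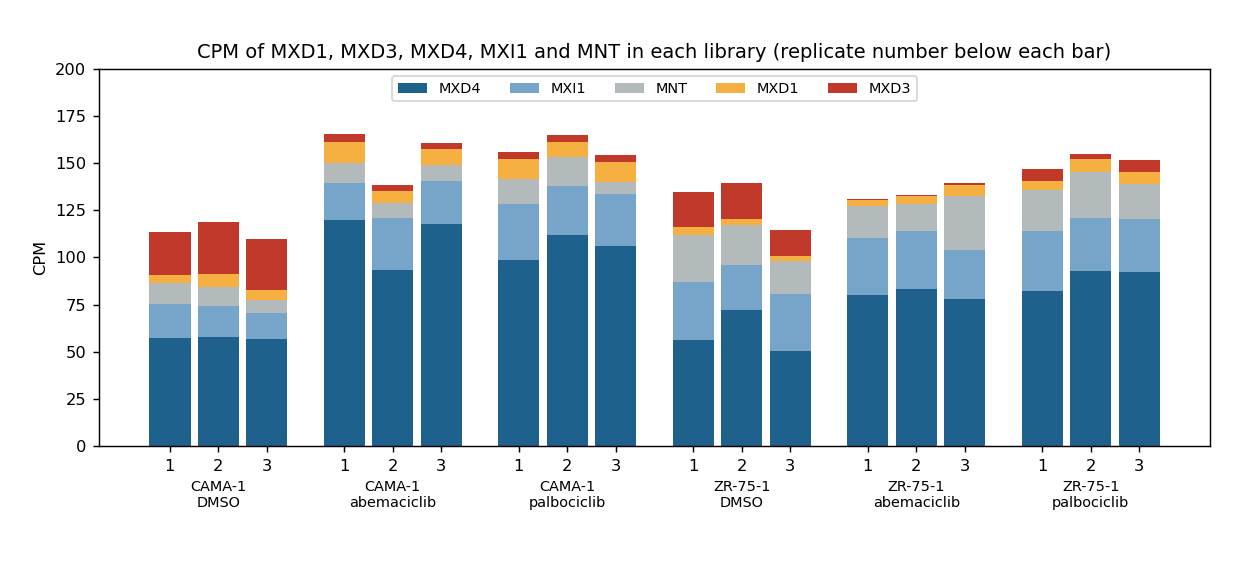
CPM of MXD4, MXI1, MNT, MXD1 and MXD3 (vertical axis, from 0), stacked for each of the 18 libraries, which are ordered by line, treatment and replicate number. The MXD3 part shrinks from a mean of 22.5% of the bar in CAMA-1 and 13.1% in ZR-75-1 with DMSO to between 0.539% and 3.34% in the treated groups, and the MXD4 part is largest in every bar.

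Abemaciclib and palbociclib, which are both CDK4 and CDK6 inhibitors of different structure, were compared with each other at the same dose and time. In CAMA-1 none of the 9 members was called in edgeR, and none at an unadjusted p under 0.05, while 2.71% of all genes tested were called, and the groups overlapped for all 9 (17.8% of genes did not overlap). DESeq2 also called 0 members. The widest difference was −0.40 for MNT with a 95% interval of −0.97 to 0.16. The interval for MXD3, −0.70 to 0.75, was wide at these counts and that for MXD4 was −0.12 to 0.27. In ZR-75-1 MXD3 alone was called, against a background of 13.6% of all genes and 8.19% lower. It was lower with abemaciclib by a log2 difference of −2.77 ± 0.55 (edgeR, adjusted p = 6.88e-05), or 7.23-fold by counts with an interval of 3.10 to 20.6, and the groups did not overlap, as for 27.7% of all genes. This call was present in every alternative. MXD4 differed by −0.15 with an interval of −0.37 to 0.07, MXI1 by −0.02 (−0.36 to 0.32) and MYC by 0.23 (−0.19 to 0.64).

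With DMSO the lines differed in 7 of the 9 members, against 61.4% of 11987 genes tested over both lines, with 5 higher in ZR-75-1 (31.6%) and 2 lower (29.9%), and groups did not overlap for 6 members against 64.4% of the genes. MYC was 2.07-fold higher in ZR-75-1 (log2 difference 1.05 ± 0.22, edgeR, adjusted p = 2.78e-05), and MNT was higher there too (1.20 ± 0.25, adjusted p = 1.76e-05). MGA (0.86), MXI1 (0.82) and MAX (0.40) were also higher in ZR-75-1 (edgeR, adjusted p = 4.39e-05, 6.81e-05 and 3.21e-04). MLX was lower there (−0.64, edgeR, adjusted p = 0.00104), as was MXD3 (−0.59, adjusted p = 0.0280). PSMC3IP, whose exons overlap those of MLX, was also lower in ZR-75-1 (−1.31, edgeR, adjusted p = 1.69e-05). The part of reads that PSMC3IP and MLX share was not tested. The MXD3 call was absent without CAMA-1 DMSO replicate 2 (−0.60, adjusted p = 0.0521) or 3 (−0.59, 0.0661) or ZR-75-1 DMSO replicate 3 (−0.45, 0.146). MXD4 (0.07) and MXD1 (−0.76) were not called (edgeR, adjusted p = 0.646 and 0.0854), although MXD1 was called without CAMA-1 DMSO replicate 1 (−0.99, adjusted p = 0.0375). A difference between the lines cannot be told apart from other differences between their cultures.

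Whether a drug acted differently on a member in the 2 lines was tested as an interaction in 1 fit over all libraries. With abemaciclib 3 members were called, against 18.3% of all genes, 1 of them higher (8.22%) and 2 lower (10.1%). The MXD4 response was smaller in ZR-75-1 by a log2 difference of −0.53 ± 0.16 (edgeR, adjusted p = 0.0108), the MAX response was higher there by 0.45 ± 0.15 (adjusted p = 0.0191) and the MXD3 response was stronger by −1.74 ± 0.64 (adjusted p = 0.0415). With palbociclib 1 member was called, against 20.6% of all genes and 10.4% lower: MXI1, with a response smaller in ZR-75-1 by −0.76 ± 0.25 (edgeR, adjusted p = 0.0212). For MXD3 with palbociclib the interaction was 1.06 ± 0.43 (edgeR, adjusted p = 0.0724), opposite in sign to that with abemaciclib, and it was called without ZR-75-1 palbociclib replicate 2 (1.33, adjusted p = 0.0234). The adjusted p of the 4 called interactions crossed 0.05 when single libraries were left out: for MXD4 without CAMA-1 abemaciclib replicate 3 (−0.43, 0.0681) or ZR-75-1 DMSO replicate 2 (−0.31, 0.218), and for MAX without CAMA-1 DMSO replicate 3 (0.31, 0.146) or ZR-75-1 DMSO replicate 3 (0.37, 0.0837). The MXD3 interaction was not called in 10 of 12 such fits, with adjusted p up to 0.163, nor with DESeq2 (0.0647) or without the low-count filter (0.0900). The MXI1 interaction was not called in 5 of 12, with adjusted p up to 0.107. With palbociclib, single libraries also decided interactions that were not called over all libraries. MYC (−0.78, edgeR, adjusted p = 0.0706) was called without CAMA-1 palbociclib replicate 2 or ZR-75-1 DMSO replicate 3, MAX (0.29, adjusted p = 0.145) without CAMA-1 DMSO replicate 1 or 2, and MGA (−0.64, adjusted p = 0.0753) without CAMA-1 DMSO replicate 1 or palbociclib replicate 3, with adjusted p of 0.0360 to 0.0477 in these fits.

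MLXIP, the MondoA partner of MLX, was higher with both drugs in both lines. It had 24.0, 22.1 and 14.9 CPM in CAMA-1 with DMSO, 33.9, 27.5 and 29.0 CPM with abemaciclib and 24.5, 35.6 and 24.1 CPM with palbociclib. In ZR-75-1 MLXIP had 45.2, 50.0 and 34.2 CPM with DMSO, 80.0, 74.0 and 98.7 with abemaciclib and 90.9, 91.6 and 83.1 with palbociclib, all treated libraries above all DMSO libraries by a wide margin. For MLXIP the log2 fold changes in CAMA-1 were 0.57 and 0.46 (edgeR, adjusted p = 0.00911 and 0.0393), and in ZR-75-1 0.95 and 1.03 (adjusted p = 5.71e-10 and 3.09e-11). MLXIPL, which encodes the MLX partner ChREBP, was called in ZR-75-1, at 1.24 and 0.65 (edgeR, adjusted p = 5.57e-08 and 0.00755), and had 0.45 and 0.35 in CAMA-1 (adjusted p = 0.401 and 0.537), where it held 11 to 26 counts. The line difference in the MLXIPL response was not called with either drug (edgeR, adjusted p = 0.184 and 0.698).

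TXNIP, a glucose uptake inhibitor and the best known target of the MLX dimers, was higher in CAMA-1 by a log2 fold change of 1.45 with abemaciclib and 1.42 with palbociclib (edgeR, adjusted p = 2.83e-29 and 7.02e-29). Its level there went from 157 ± 5.65 CPM to 437 ± 21.6 and 430 ± 8.69 CPM (SD, n = 3). In ZR-75-1 TXNIP stood at 700 ± 123 CPM with DMSO and its log2 fold changes were −0.04 and −0.03 (edgeR, adjusted p = 0.742 and 0.839). The responses differed between the lines by −1.51 and −1.48 (edgeR, adjusted p = 1.22e-18 and 2.91e-18). Of the other listed targets, KLF10 was at 0.49 and 0.50 in CAMA-1, where it was called (edgeR, adjusted p = 0.0310 and 0.0254), and at −0.49 and −0.80 in ZR-75-1, where it was called with palbociclib (adjusted p = 0.0686 and 0.00241). ARRDC3 was at 0.35 and 0.50 in CAMA-1, called with palbociclib (edgeR, adjusted p = 0.0762 and 0.00763), and at −0.66 and −0.49 in ZR-75-1, called with both (adjusted p = 0.00249 and 0.0300). ARRDC4 had 0 to 27 counts and, in the fits within a line, passed the filter on low counts in ZR-75-1 but not in CAMA-1. In ZR-75-1 it was at 1.61 with abemaciclib, where it was called, and 0.91 with palbociclib (edgeR, adjusted p = 0.00269 and 0.148). By summed counts ARRDC4 was 8.25-fold and 3.95-fold higher in CAMA-1, with 44 and 24 counts against 6 with DMSO. The intervals from counting error alone were 3.50 to 23.7 and 1.57 to 11.8. The difference was not tested against the spread between libraries within CAMA-1.

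MYCN and MYCL, the other MYC family genes, did not pass the filter on low counts. MYCN had 8, 13 and 10 counts in CAMA-1 with DMSO, 3, 0 and 2 with abemaciclib and 3, 2 and 0 with palbociclib. Its DMSO libraries lay above all treated ones, and by counts it was 5.51-fold lower with abemaciclib (interval 2.13 to 18.2) and 6.28-fold lower with palbociclib (2.42 to 20.7). In ZR-75-1 MYCN had 1 count in all 9 libraries together. MYCL had 0 to 12 counts per library.

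**Figure D4:**
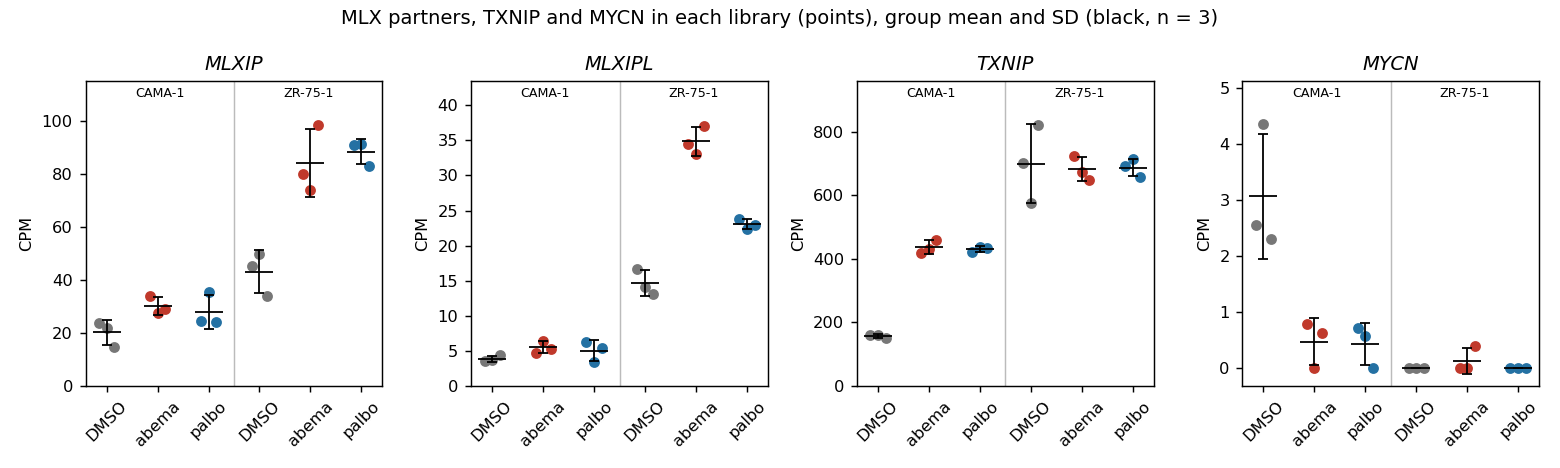
CPM of MLXIP, MLXIPL, TXNIP and MYCN (vertical axes) in the 6 groups, with 1 point per library, the group mean as a black bar and the SD as whiskers (n = 3). MLXIP is higher with each drug in each line, TXNIP moves from a mean of 157 CPM to 437 and 430 CPM in CAMA-1 and has group means of 700, 682 and 687 CPM in ZR-75-1, and MYCN reaches 13 counts at most.

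The genes that MYC is known to raise were followed in a list of 57 targets for ribosome production, nucleolar function and the cell cycle, written after a published target set. In CAMA-1, 56 were tested, of which abemaciclib had 26 lower and 2 higher and palbociclib 22 lower and 1 higher, with median log2 fold changes of −0.35 and −0.29 beside 0.01 and 0.00 over all genes. Of 55 tested in ZR-75-1, abemaciclib had 13 lower and 8 higher and palbociclib 7 lower and 6 higher, with medians of 0.01 and 0.04 beside −0.0037 and −0.0080 over all genes. The background for genes called lower was 20.2% and 18.9% (CAMA-1) and 18.3% and 13.6% (ZR-75-1). For genes called higher it was 20.3% and 18.5% (CAMA-1) and 17.9% and 14.6% (ZR-75-1). The palbociclib counts in ZR-75-1 were thus near the background in both directions. The widest changes were in cell cycle genes of the list. PLK1, a mitotic kinase, fell by 2.62 and 2.28 in CAMA-1 and by 4.17 and 1.11 in ZR-75-1 on the log2 scale (edgeR, adjusted p = 1.26e-16 or less). MCM5, a replicative helicase subunit, fell by 1.83, 1.06 and 0.97 in the first 3 of these comparisons and was at 0.11 with palbociclib in ZR-75-1 (edgeR, adjusted p = 0.658). PLK4, the centriole duplication kinase, fell by 1.60 with abemaciclib in CAMA-1 (edgeR, adjusted p = 3.00e-04) and was not called elsewhere. DUSP2, a phosphatase, rose by 0.58 and 1.54 with abemaciclib in CAMA-1 and ZR-75-1 (edgeR, adjusted p = 0.00214 and 1.31e-06).

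Of 8 genes that MYC is known to repress, 7 were tested in CAMA-1 and 5 in ZR-75-1. CDKN1A, which encodes the cell cycle inhibitor p21, rose in CAMA-1 by 1.99 and 1.64 and fell in ZR-75-1 by 2.48 and 1.04 on the log2 scale (edgeR, adjusted p = 6.02e-11 or less). The difference between the lines was −4.49 with abemaciclib and −2.70 with palbociclib (edgeR, adjusted p = 3.21e-35 and 1.60e-20). CDKN1B, which encodes p27, fell in all 4 comparisons, by 0.43 to 0.95 (edgeR, adjusted p = 0.0182 or less). The whole list had, in CAMA-1, 2 higher and 2 lower calls for abemaciclib against 3 and 1 for palbociclib, and in ZR-75-1 1 and 2 against 1 and 3. The background in CAMA-1 was 20.3% higher and 20.2% lower for abemaciclib and 18.5% higher and 18.9% lower for palbociclib, so that 1 of 7 lower is near it. In ZR-75-1 the background was 17.9% higher and 18.3% lower for abemaciclib and 14.6% higher and 13.6% lower for palbociclib. NDRG2, a growth suppressor, was called with palbociclib in ZR-75-1 (1.36, edgeR, adjusted p = 9.05e-05), and CEBPA, a differentiation factor, with abemaciclib there (0.40, adjusted p = 0.0285).

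**Figure D5:**
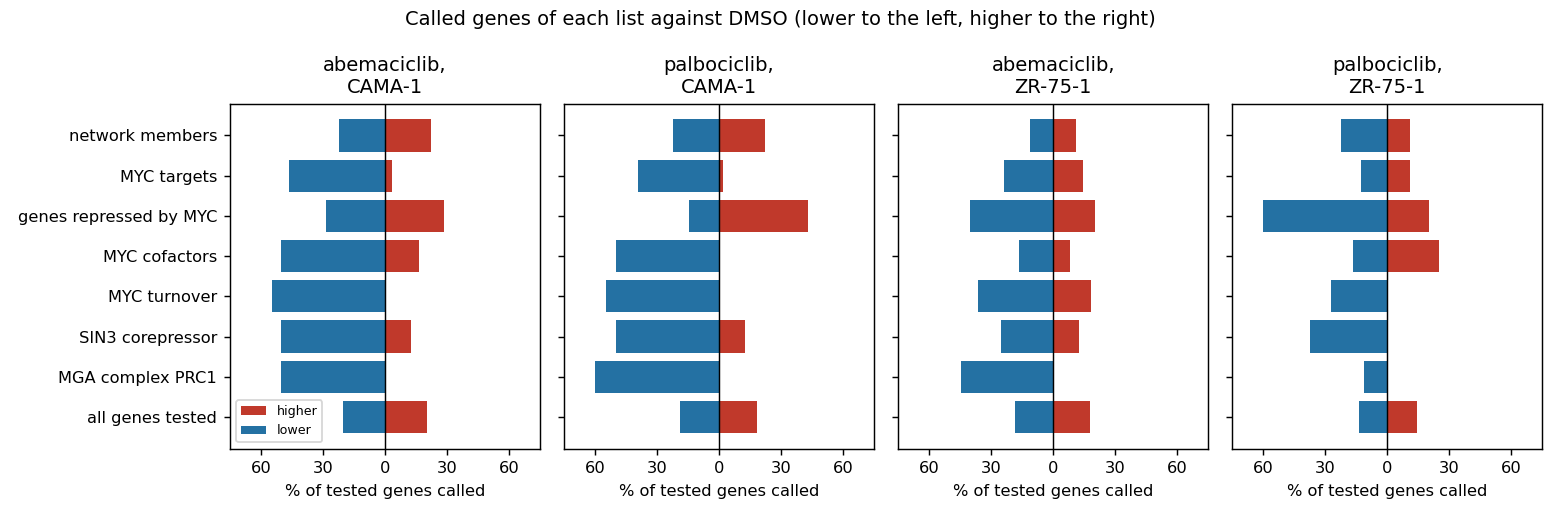
Share of the tested genes of each list (horizontal axis, percent) called lower (blue, to the left) or higher (red, to the right) against DMSO, in 1 panel per drug and line, with all genes tested as the bottom bar. In CAMA-1 the lists of MYC targets, cofactors, turnover genes, SIN3 subunits and MGA partners have more lower than higher calls, while all genes divide into 2247 higher and 2230 lower with abemaciclib.

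The background for the lists that follow is the share of all genes called. In CAMA-1 it was 20.2% lower and 20.3% higher for abemaciclib, and 18.9% lower and 18.5% higher for palbociclib. In ZR-75-1 it was 18.3% lower and 17.9% higher for abemaciclib, and 13.6% lower and 14.6% higher for palbociclib. Of 16 SIN3 corepressor genes, which serve the MXD proteins and MNT, 8 were lower and 2 higher under each drug in CAMA-1, and in ZR-75-1 abemaciclib had 4 lower and 2 higher and palbociclib 6 lower and 0 higher. The abemaciclib count of 4 in ZR-75-1 is near its background of 18.3%. The medians were −0.34 and −0.35 (CAMA-1) and −0.25 and −0.22 (ZR-75-1). SAP30, a SIN3 subunit, fell in all 4 comparisons, by 1.44, 1.31, 1.05 and 0.69 (edgeR, adjusted p = 4.05e-04 or less). HDAC1, its histone deacetylase, fell by 1.06 and 0.84 in CAMA-1 and by 0.35 with palbociclib in ZR-75-1 (edgeR, adjusted p = 0.0315 or less), and was at −0.30 with abemaciclib there (adjusted p = 0.0591). RBBP7, a histone-binding subunit, fell by 0.90 and 0.86 in CAMA-1 and by 0.32 with abemaciclib in ZR-75-1 (edgeR, adjusted p = 0.00625 or less), and SAP130 was called with abemaciclib in ZR-75-1 (−0.77, adjusted p = 0.0432).

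Of the 10 partners of MGA in its Polycomb complex, abemaciclib had 5 lower and palbociclib 6 lower in CAMA-1, against 4 and 1 of the 9 tested in ZR-75-1, and none was higher. The 1 lower with palbociclib in ZR-75-1 is at its background of 13.6%. The medians were −0.36 and −0.29 (CAMA-1) and −0.21 and −0.10 (ZR-75-1). TFDP1, the dimer partner of E2F factors, fell by 1.21, 1.15, 0.78 and 0.41 in the 4 comparisons (edgeR, adjusted p = 0.00412 or less). E2F6, the E2F of this complex, fell by 0.72 and 0.61 in CAMA-1 (edgeR, adjusted p = 0.0202 and 0.0451). RING1 and CBX1, its ubiquitin ligase and a chromatin reader, were called lower in 3 of the 4, by 0.29 to 0.51 (edgeR, adjusted p = 0.0172 or less), the exception being palbociclib in ZR-75-1. None of 10 germline genes that the complex is known to silence passed the filter on low counts in either line.

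Among 13 MYC cofactors, 6 of 12 tested were lower with each drug in CAMA-1, while 2 and 0 were higher. In ZR-75-1, 2 were lower with each drug, and 1 and 3 higher, so that the lower calls were near the background of 18.3% and 13.6%. The medians were −0.23 and −0.25 (CAMA-1) and −0.08 and −0.14 (ZR-75-1). KAT5, a histone acetyltransferase, fell in all 4 comparisons, by 0.69, 0.70, 1.13 and 0.86 (edgeR, adjusted p = 6.64e-07 or less). RUVBL1, a helicase of the same complex, fell by 0.95, 0.64 and 0.40 in the first 3 (adjusted p = 0.0112 or less), and ACTL6A, a chromatin remodelling subunit, by 0.82 and 0.52 in CAMA-1 (adjusted p = 0.00928 or less). CDK9, the elongation kinase, was higher in ZR-75-1, by 1.68 and 1.32 (edgeR, adjusted p = 0.00108 and 0.0162). In CAMA-1 CDK9 was at 0.91 and 0.76, the same direction, and the palbociclib value there was not called. Of 11 genes for MYC protein turnover, 6 were lower with each drug in CAMA-1 and none higher, and in ZR-75-1 abemaciclib had 4 lower and 2 higher and palbociclib 3 lower and 0 higher. The medians were −0.34 and −0.26 (CAMA-1) and −0.08 and −0.11 (ZR-75-1). AURKA, a mitotic kinase that stabilises MYC family proteins, fell by 1.75, 1.56, 2.07 and 0.66 (edgeR, adjusted p = 2.07e-06 or less), and CIP2A, a phosphatase inhibitor that protects MYC, by 1.87, 1.49, 1.37 and 0.66 (adjusted p = 5.78e-04 or less). SKP2, a ubiquitin ligase subunit, fell by 1.06, 1.05 and 0.54 in the first 3 (edgeR, adjusted p = 0.00366 or less).

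The luminal markers were themselves not constant. ESR1 rose in all 4 comparisons, by 0.86, 0.91, 0.96 and 0.77 (edgeR, adjusted p = 3.00e-08 or less). KRT8 and KRT18, the luminal keratins, were higher in CAMA-1, by 0.50 to 0.96, whereas KRT18 was lower in ZR-75-1 by −0.38 and −0.63 (edgeR, adjusted p = 1.34e-07 or less for KRT18). KRT8 was at 0.04 and −0.44 in ZR-75-1 and was called with palbociclib (edgeR, adjusted p = 0.655 and 5.49e-08). GATA3, a luminal transcription factor, went the other way in CAMA-1, where both drugs had it lower, by −0.15 and −0.31 (edgeR, adjusted p = 0.0164 and 5.97e-07). In ZR-75-1 GATA3 was higher with abemaciclib and lower with palbociclib, at 0.16 and −0.27 (edgeR, adjusted p = 0.0208 and 1.24e-04). COL1A1, the 1 stromal marker tested, was at −0.58 and −0.53 in CAMA-1 (edgeR, adjusted p = 0.0451 and 0.0657) and was not called in ZR-75-1. The part of these shifts in the values of the members was not tested.

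The genes whose pattern over the libraries was most like that of each member were ranked by Pearson's r of log2 CPM over the 18 libraries, after each line's mean was subtracted, among 9710 genes. The libraries share their groups, so these values are a description. MXD3 was closest to STMN1, a microtubule regulator of mitosis (r = 0.98), H1-10, a linker histone (0.98), and PHF19, a Polycomb subunit (0.98). MXD4 was closest to GSN, an actin-severing protein (0.94), GREB1, an oestrogen-regulated gene (0.94), and MYO10, a myosin (0.94). For MXI1 the nearest were PADI2 (0.92), TAX1BP3 (0.89) and TMSB10 (0.87), and for MXD1 ADCK2 (0.83) and LAMTOR1 (0.81). For MYC they were CTSV (0.82), STAT5B (0.73) and HERPUD1 (0.72), and for MAX SMARCA2, ATP2A2 and TXNDC11 (0.80 each). For MGA they were SAMD11 (0.79), EDC3 (0.78) and ZNF268 (0.77), for MLX EIF2S2P4 (0.79), XPO4 (0.74) and TBL2 (0.74), and for MNT, where the values were lowest, CREBL2 and COA7 (0.66 each). Between members, r was −0.74 for MXD3 and MXD4, 0.71 for MXD1 and MXD4, −0.63 for MAX and MXI1, and 0.04 for MXD3 and MYC.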

How the data were processed

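RNA of CAMA-1 and ZR-75-1 cells was sequenced by the authors with a Lexogen QuantSeq 3′ kit, aligned to hg38 with STAR 2.7.5b and counted per gene with featureCounts 2.0.1, according to the methods and the submitters' processing notes. The labels and the methods name different strand versions of the kit, and how reads with several alignments were counted is not given in the sources used here. The deposited file holds raw counts per gene, which the authors did not normalize. All 18 columns were matched to samples by title, and 0 were left unused. The methods describe independent biological replicates, and the tests set differences between groups against the spread between these libraries. Floors and counting intervals cover counting error only.

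From these counts, genes were filtered with filterByExpr, scaled by TMM and tested in edgeR 4.0.16 (R 4.3.3) by the robust quasi-likelihood test, in 1 fit per line for drug comparisons and 1 fit over both lines for line differences, with Benjamini-Hochberg adjustment over all genes and a threshold of 0.05. The script was tested on simulated data with known changes. Printed ± values of log2 fold changes are SE worked back from the F statistic of the test. Intervals of log2 values are at 95%, are built symmetrically from these SE and are approximate. DESeq2 1.42.0, other normalizations and filters, removal of mitochondrial genes, a replicate block and leaving out each library were alternatives. Non-robust estimation was added after seeing the data. Single genes were followed through the alternatives for the 9 members only. Start windows and gene symbols come from RefSeq and the gene name table, and gene positions from GENCODE 44.

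The members and the gene lists were chosen with earlier results of these data known, and the lists were written by hand, so counts over them are descriptions. Named genes are the members, the MYC family and MLX partners, the markers, from each other list the 4 genes at most with the largest mean absolute log2 fold change over the 4 comparisons with DMSO (called at least once, mean of 10 counts or more in both lines), and the 3 genes most like each member (0.5 CPM added before the log). Overlapping genes and ARRDC4 were named in addition, after their values were seen. A few genes that these rules name, and 1 start region, are not reported here.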

Additional observations from a re-analysis of the deposited data

Results flagged for a closer look

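Responses of 4 members were called as different between the lines in a test of the difference itself, the interaction of line and drug in 1 edgeR fit over the 18 libraries. The MXD4 response to abemaciclib was smaller in ZR-75-1 than in CAMA-1, by −0.53 ± 0.16 on the log2 scale (edgeR, adjusted p = 0.0108). The MAX response to abemaciclib was 0.45 ± 0.15 higher in ZR-75-1 (edgeR, adjusted p = 0.0191). The MXD3 response to abemaciclib was −1.74 ± 0.64 lower in ZR-75-1 (edgeR, adjusted p = 0.0415), where the treated libraries held 2, 1 and 3 counts. The MXI1 response to palbociclib was −0.76 ± 0.25 lower in ZR-75-1 (edgeR, adjusted p = 0.0212). Each of these calls was absent in some fits that left out 1 of 12 libraries: in 10 fits for MXD3 (adjusted p up to 0.163), in 5 for MXI1 (up to 0.107), in 2 for MAX (up to 0.146) and in 2 for MXD4. The MXD4 value was −0.31 without ZR-75-1 DMSO replicate 2 (edgeR, adjusted p = 0.218). The MXD3 call was also absent with DESeq2 (adjusted p = 0.0647) and without the filter on low counts (edgeR, adjusted p = 0.0900). Groups of 3 libraries were not tested for single outlying values.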

How the results depend on the processing

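The MXD3 and MXD4 calls against DMSO held in both lines under every alternative listed above. With DESeq2 the genes called between abemaciclib and palbociclib were 187 in CAMA-1 and 898 in ZR-75-1, in place of 300 and 1497, and the cause was not tested. Leaving out 1 library at a time gave 184 to 242 such genes in CAMA-1. Over the same fits the members called were 2 to 4 with abemaciclib in CAMA-1, where 2 came without DMSO replicate 3. For the difference between lines they were 1 to 3 with abemaciclib and 0 to 3 with palbociclib.

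No pairing of the libraries by replicate number was seen. Deviations of same-numbered libraries of a line correlated at −0.0783 to 0.0123, and 0 of 18 libraries correlated best with their own number. A correlation over many genes can miss a weak pairing, so pairing is not excluded. With the replicate number as a block, 4393 and 4018 genes were called in CAMA-1 with abemaciclib and palbociclib against 4477 and 4137 without it, and 3963 and 3083 in ZR-75-1 against 3992 and 3097. MYC with palbociclib in ZR-75-1 was the 1 member whose call against DMSO differed with the block (−0.50, edgeR, adjusted p = 0.0535).

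Of 81 log2 values of the members, 21 changed sign in some fit, none of them a call. Leaving out 1 library gave, with abemaciclib in CAMA-1, −0.23 to 0.21 for MYC and −0.27 to 0.11 for MNT, and with palbociclib −0.035 to 0.42 for MYC. Between the drugs there it gave −0.37 to 0.070 for MYC, −0.33 to 0.043 for MXD1, −0.093 to 0.086 for MXD3 and −0.17 to 0.080 for MGA. In ZR-75-1 the ranges with abemaciclib were −0.43 to 0.095 for MNT, −0.084 to 0.11 for MXI1 and −0.0099 to 0.15 for MAX. With palbociclib they were −0.064 to 0.12 for MXI1, −0.064 to 0.11 for MAX, −0.094 to 0.14 for MNT and −0.32 to 0.035 for MLX. Between the drugs in ZR-75-1 they were −0.057 to 0.054 for MXI1 (0.010 with upper-quartile scaling), −0.036 to 0.11 for MAX, −0.10 to 0.13 for MGA and −0.45 to 0.076 for MNT. For the line differences in response they were −0.40 to 0.19 for MNT with abemaciclib and −0.033 to 0.33 for MXD1 with palbociclib, and between the lines with DMSO −0.15 to 0.17 for MXD4.

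Depth limits MXD1 and MXD3, with at most 44 counts and, in treated cells, at most 23 counts per library.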
